A study of Mus musculus with 8 samples.

Results

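The genes described here are the mouse major histocompatibility complex (MHC) genes and the genes that load, trim and switch on MHC molecules, measured by bulk RNA sequencing of MC38 tumors. Members were all gene symbols of the raw count table that begin with H2- together with B2m, Tap1, Tap2, Tapbp, Cd74, Ciita, Nlrc5, Calr, Canx, Pdia3, Erap1 and Cd1d1, provided that they had at least 80 counts over all 8 tumors. Of the 24421 genes counted, 55 matched these symbols and 43 reached the minimum. The count minimum did not use the groups. Just inside it lay H2-Eb2 with 91 counts and just outside it H2-M2 with 51 counts. By role, 3 of the 43 were the class Ia heavy chains H2-K1 and H2-D1 with B2m, 19 were class Ib or other class I symbols, 7 were class I loading genes, 10 were class II genes with Cd74, 2 were transactivators, and Cd1d1 and H2-Ke6 stood alone. H2-Ke6 carries the H2 prefix for its position but encodes a steroid dehydrogenase and not an MHC molecule.

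Tumors were grown in 9-week-old female mice of the B6 Kaede strain, which carry a fluorescent protein that turns from green to red under violet light, from injected cells of MC38, a mouse colon adenocarcinoma line. On day 10, 4 tumors (photoconverted) were lit for 3 min with 405-nm violet light and 4 (control) were not, and all 8 were placed in RNAlater 5 h after photoconversion. Both groups carried the Kaede transgene and the same tumor line, so that the groups differed by light alone as labeled. The labels name 8 tumors without saying whether each came from its own mouse, and p-values measure the spread between these tumors. The comparison addresses whether the light used to mark cells changed the antigen presentation transcripts of the tumor.

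MHC class I molecules are carried by nearly all nucleated cells and show peptides from inside the cell to CD8 T cells. Each consists of a heavy chain and B2m, is filled in the endoplasmic reticulum with peptides brought in by the Tap1-Tap2 transporter, and is held ready by tapasin (Tapbp), calreticulin, calnexin and ERp57 (Pdia3). Class II molecules are made mainly by dendritic cells, macrophages and B cells, are escorted by the invariant chain Cd74, exchange peptides with the help of H2-DM, and show them to CD4 T cells. Nlrc5 is the transactivator of class I genes and Ciita that of class II genes, and interferon gamma raises both sets.

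Library totals were 16735293 to 35844417 counts after photoconversion and 12576615 to 29439901 counts without it. Photoconverted tumor 4, control tumor 2 and control tumor 4 stood apart by the share of counts on Rn45s, the ribosomal RNA precursor, which was 21.9%, 35.7% and 23.2% in them and between 2.70% and 9.65% in the other 5 tumors. Levels are given as CPM, that is read counts normalized for library size with TMM, unless said otherwise. Markers of epithelial cells were almost absent, with a summed level of 2.08 to 5.18 CPM over Epcam, Krt8, Krt18, Cdh1 and Cldn7. The leukocyte marker Ptprc (CD45) was at 50.5 to 153 CPM in the 8 tumors, so all of them contained leukocyte RNA. In bulk tumors fewer cells of a type and less RNA per cell cannot be told apart.

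No antigen presentation gene passed the threshold between photoconverted and control tumors when all 8 were fitted. Of the 41 members that could be tested with edgeR, 0 had an adjusted p under 0.05, where the background over all 14468 genes tested was also 0.0%. At an unadjusted p under 0.05 there was 1 member, the class Ib symbol H2-Q5, which was higher after photoconversion, against a background of 1.65% of all genes higher and 0.574% lower (2.23% in either direction). H2-Q5 was also the only member at that level in the fit with the replicate number as a block, where 4.38% of all genes were higher and 1.63% lower (6.01% in either direction). DESeq2 called 0 of the 43 members at an adjusted p under 0.05 and 2 at an unadjusted p under 0.05, H2-Q5 and H2-Bl, where it called 0.141% of all genes and had 2.77% at that unadjusted level (2.06% higher and 0.71% lower). The CPM of the groups overlapped in every one of the 41, whereas they were apart in 1.33% of all genes tested (0.684% higher and 0.643% lower). The fold changes were small and lay on both sides of 0: the log2 fold change, photoconverted over control, was above 0 for 11 of the 41 and below 0 for 30, with a median of -0.08, whereas it was above 0 for 46.8% of all genes with a median of -0.01. That lean to lower values did not hold in all settings. Without control tumor 2 the log2 fold change was above 0 for 29 of the 41 and its median was 0.08. With the log2 Rn45s share as a covariate it was above 0 for 20, with a median of -0.00093. Of the 9 class II genes tested, 8 lay below 0, with a median of -0.17. Their median was -0.21 in the 5 tumors of low Rn45s share and -0.00079 without control tumor 2. The 41 include symbols that repeat the counts of another.

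**Figure D1:**
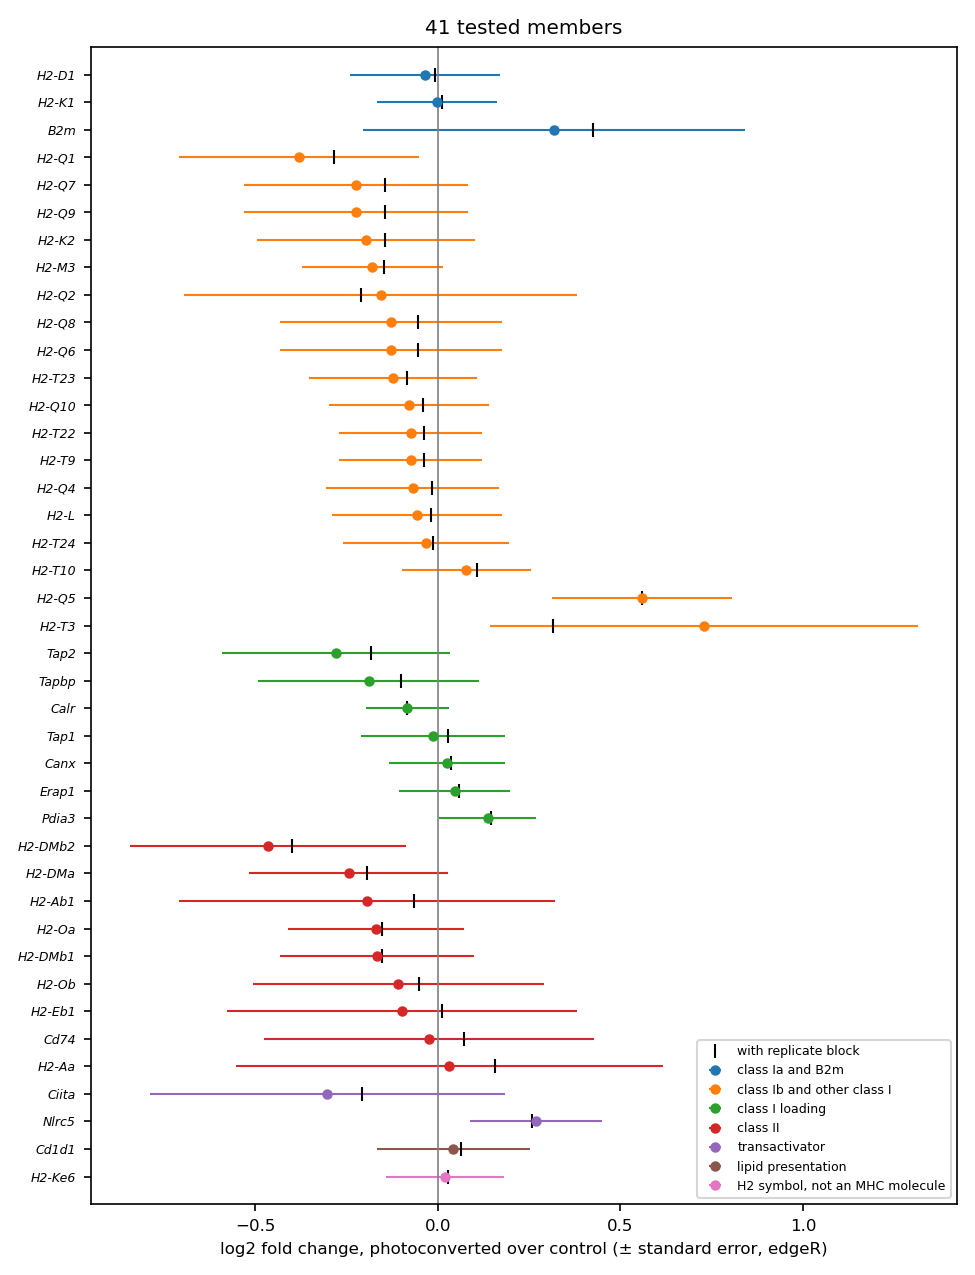
Log2 fold change of each of the 41 tested members, photoconverted over control (x axis, log2 scale), as a point with a bar of 1 standard error on each side from edgeR, colored by role; the vertical tick is the value with the replicate number as a block. Points lie between -0.47 (H2-DMb2) and 0.73 (H2-T3), and the bars of most members cross 0.

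H2-K1 and H2-D1, the classical class I heavy chains of the b haplotype, were the most abundant heavy chain transcripts and had nearly equal means in the groups. H2-K1 (chr17:33996017-34000347 of GRCm38) was at 1824, 1994, 1904 and 2147 CPM in photoconverted tumors 1 to 4 and at 1595, 2458, 1834 and 1999 CPM in control tumors 1 to 4. The controls enclosed all 4 photoconverted values. The means were 1967 ± 139 and 1971 ± 364 CPM (SD, n = 4 each), and the log2 fold change was -0.0030 ± 0.16 (SE, edgeR adjusted p = 0.999). H2-D1 (chr17:35262730-35267499) was at 2094, 2451, 2226 and 2785 CPM against 1837, 3271, 2094 and 2597 CPM, with a log2 fold change of -0.04 ± 0.21. In both genes control tumor 2 was the highest and control tumor 1 the lowest of the 8.

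B2m, the light chain that every class I molecule needs, varied far more than its partners. It was at 1296, 723, 1360.0 and 417 CPM in photoconverted tumors and at 1289, 283, 1054 and 416 CPM in the control tumors, a range of 4.81-fold against 1.54-fold for H2-K1 and 1.78-fold for H2-D1. The low values were those of photoconverted tumor 4 and control tumors 2 and 4 in the first place, with photoconverted tumor 2 between them and the rest. The group means were 949 ± 456 and 761 ± 487 CPM (SD, n = 4 each), the log2 fold change was 0.32 ± 0.52, and a two-sided exact permutation test of the difference in means gave p = 0.514. Leaving out single control tumors moved the log2 fold change of B2m to 0.70 (without control tumor 1) and 0.043 (without control tumor 2). B2m was the only member that was higher in the photoconverted tumor of all 4 same-numbered pairs, which held for 7.2% of all genes, but in pairs 1 and 4 its log2 CPM differed by 0.0069 and 0.0013. With the replicate number as a block its log2 fold change was 0.43 ± 0.22 with an adjusted p of 0.856 (edgeR). Per kilobase of exon, averaged over the 8 tumors, H2-K1 stood at 1189.9, H2-D1 at 1151 and B2m at 994 CPM.

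**Figure D2:**
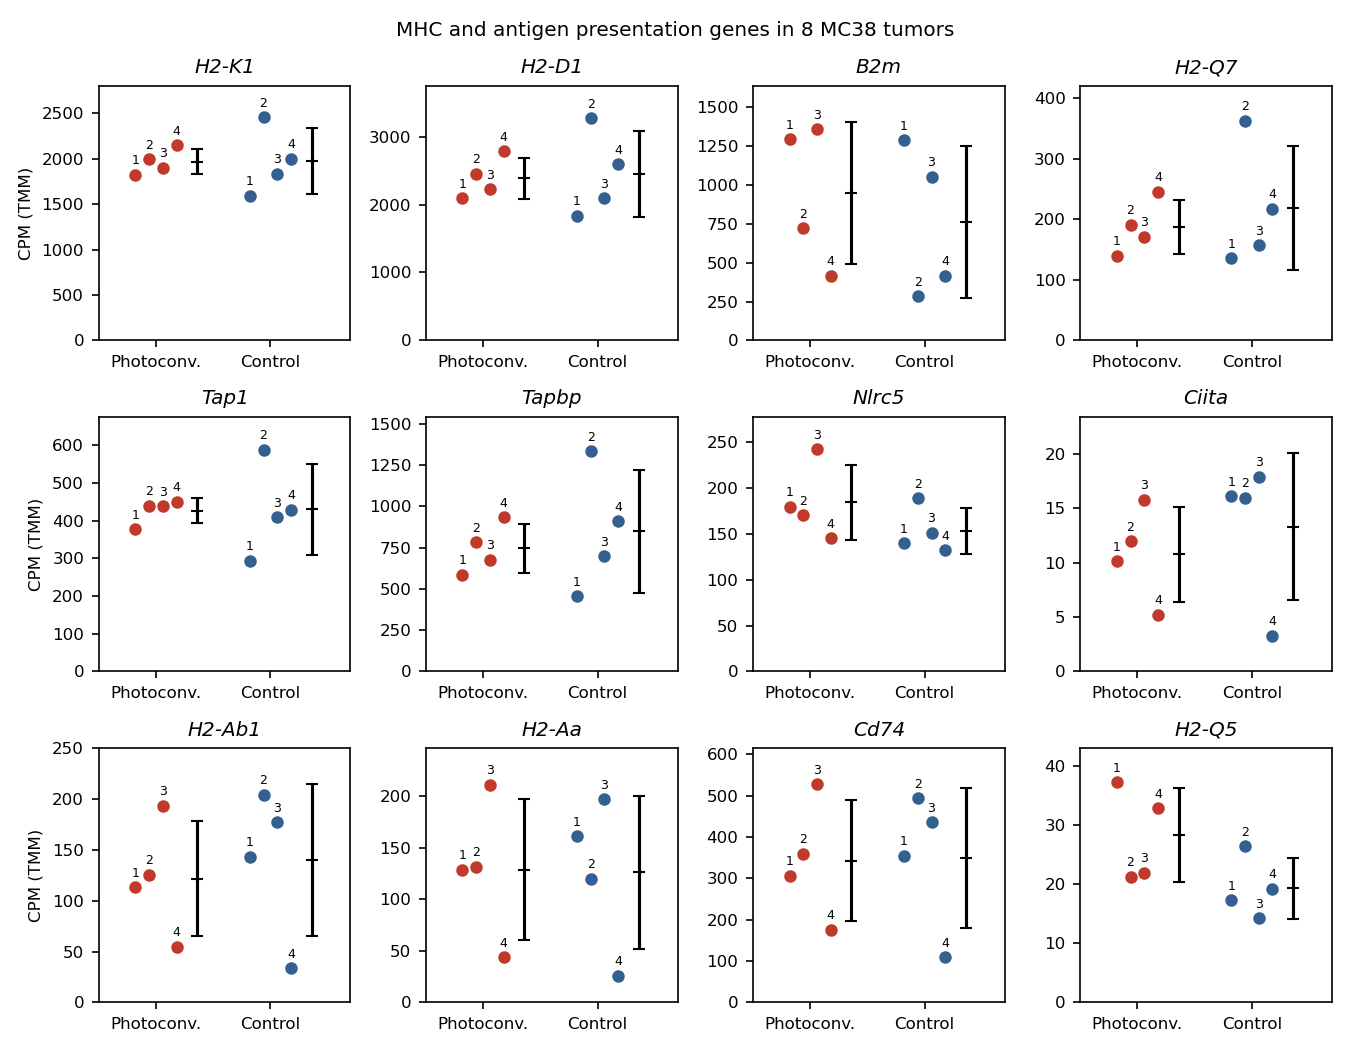
CPM (y axis, linear from 0) of 12 members in the 4 photoconverted (red) and 4 control (blue) tumors, numbered by tumor; the bar beside each group is the mean with 1 SD on each side. The groups overlap in all 12 panels, and B2m and the class II genes H2-Ab1, H2-Aa and Cd74 spread more widely within a group than H2-K1 or Tap1.

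The class Ib and other class I symbols are mostly relatives of H2-K1 and H2-D1 in the Q, T and M regions of the complex. Over the 18 tested the median log2 fold change was -0.10, and 3 lay above 0. The 18 include H2-K2, annotated as a pseudogene. They also include H2-L, H2-Q8, H2-Q9 and H2-T9, whose counts were the same or much the same as those of another symbol (below). H2-T22, an abundant T-region gene, was at 279, 309, 281 and 343 CPM in the photoconverted and 227, 426, 272 and 351 CPM in the control tumors. H2-Q4 was at 215, 269, 242 and 306 against 180.3, 408, 238 and 258 CPM. H2-Q7, which encodes a Qa-2 molecule, was at 139.6, 191, 171 and 245 against 136, 363, 158 and 218 CPM. In these 3 genes, as in H2-K1, control tumor 2 was the highest of the 8 and control tumor 1 the lowest, so that both extremes fell within one group. H2-T23, which encodes Qa-1, the ligand of the inhibitory receptor Cd94-Nkg2a, was at 86.2 to 129 CPM in the photoconverted and 76.7 to 164 CPM in the control tumors. H2-M3, which presents formylated peptides, was at 36.5 to 46.1 and 36.3 to 65.5 CPM, with a log2 fold change of -0.18 ± 0.19. The log2 fold changes of H2-Q6, H2-T10 and H2-T24 were -0.13, 0.08 and -0.03, all smaller than their standard errors.

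H2-Q5 (chr17:35394126-35397800), annotated in GENCODE as a polymorphic pseudogene, was the member with the smallest p. It was at 37.2, 21.2, 21.9 and 32.8 CPM in the photoconverted and at 17.2, 26.4, 14.3 and 19.2 CPM in the control tumors. Only control tumor 2 reached into the photoconverted range, lying above photoconverted tumors 2 and 3. The log2 fold change was 0.56 ± 0.25 (edgeR, unadjusted p = 0.0489, adjusted p = 0.999), and the exact permutation p was 0.143 where the smallest that 4 against 4 tumors allow is 0.0286. With the replicate block the log2 fold change was 0.56 ± 0.22 and the adjusted p was 0.797. The largest log2 fold change of the 41, 0.73 ± 0.59 for H2-T3, which encodes the thymus leukemia antigen, came from photoconverted tumor 2 alone, at 5.37 CPM where the other 7 tumors were at 0.683 to 1.92 CPM. Without that tumor it was -0.18. H2-Q1 had the lowest log2 fold change of the class I genes, -0.38 ± 0.33.

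A pair of class Ib symbols, H2-Q2 and H2-Bl, was chosen after their values were seen. H2-Q2 was at 14.1, 49.5, 15.2 and 51.2 CPM in the photoconverted and 11.8, 39.1, 46.3 and 47.5 CPM in the control tumors. Its values fell into a low set of 3 tumors, at 11.8 to 15.2 CPM, and a high set of 5, at 39.1 to 51.2 CPM, with members of both groups in each. H2-Bl, annotated as a polymorphic pseudogene, had 7, 5, 6 and 5 raw counts in photoconverted and 78, 5, 45 and 1 in control tumors, so that control tumors 1 and 3 held most of its 152 counts. On the CPM scale it was at 0.158 to 0.342 in the photoconverted tumors and at 2.23, 0.535, 1.60 and 0.061 in the control tumors, of which tumors 1 to 3 lay above every photoconverted tumor and tumor 4 below. It did not pass the expression filter with all 8 tumors. In a fit of the 5 tumors below an Rn45s share of 10% it passed only through control tumors 1 and 3, where it is high, so its difference there is a description. That fit gave H2-Bl a log2 fold change of -3.33 ± 0.38 (edgeR adjusted p = 0.0195) and no other member an adjusted p under 0.05, where 0.243% of the 15252 genes tested were called higher and 0.0328% lower. At an unadjusted p under 0.05 that fit had 3 members higher, H2-Q5, H2-T10 and Nlrc5, against 6.31% of all genes, and 3 lower, H2-Bl, H2-DMb2 and H2-Eb2, against 4.2%, of which H2-Bl and H2-Eb2 had not passed the filter with all 8 tumors. Over all 8 tumors without the filter the adjusted p of H2-Bl was 0.998 (edgeR), and with DESeq2 it was 0.645.

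Several class I symbols had the same or much the same counts as another. H2-Q8 had the same counts as H2-Q6, and H2-Q9 the same as H2-Q7, in all 8 tumors. H2-T9 differed from H2-T22 by at most 4 counts in any tumor. H2-L held between 77.2% and 85.9% of the counts of H2-D1. These 4 symbols were not found in GENCODE M21. Whether the same reads were counted under both symbols of a pair was not tested. Reads of near-identical class I genes also cannot be assigned to one of them with certainty, so values of the Q, T and D regions are uncertain for single genes. Summed over the 19 class Ib and other class I symbols, levels were 3909 ± 618 CPM in the photoconverted and 4173 ± 1387 CPM in the control tumors (SD, n = 4 each). Without H2-L, H2-Q8, H2-Q9 and H2-T9 the sums were 1361 ± 209 and 1487 ± 513 CPM. The ratio of group means was 0.937 with them and 0.915 without them.

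The 250 bases before the RefSeq start were searched on both strands for 5 motifs, and 27 members had such a promoter (GRCm38.p6). The motifs were the X box (AG, NN, AC, N and GATG in a row), the Y box ATTGG, the interferon-stimulated response element (ISRE) GAANNGAAA, the gamma-activated site (GAS) TTCNNNGAA and the NF-kB site GGGNNTTCC, where N is any base and no motif lies within another. An ISRE match stood in 7 of the 27, against 6.31% of 32851 promoters, and all 7 were class I genes: H2-K1, H2-D1, H2-M3, H2-Q4, H2-Q6, H2-Q7 and H2-Q10. An NF-kB match stood in 7, against 4.98%, a Y box in 24, against 33.8%, and a GAS in 2, against 7.02%. The stretches before H2-K1, H2-Q4 and B2m are shown as class I stretches with and without the ISRE and NF-kB letters. Whether these letters bear on the levels in the tumors was not tested. In capitals are the NF-kB match, the ISRE match, which reads on the opposite strand, and the Y box on either strand.
H2-K1: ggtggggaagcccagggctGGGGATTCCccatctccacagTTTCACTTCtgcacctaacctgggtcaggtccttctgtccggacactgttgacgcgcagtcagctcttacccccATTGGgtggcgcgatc
H2-Q4: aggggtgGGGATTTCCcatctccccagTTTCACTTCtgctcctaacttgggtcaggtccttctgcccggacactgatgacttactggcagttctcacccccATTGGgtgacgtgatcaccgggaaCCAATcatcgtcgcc
B2m: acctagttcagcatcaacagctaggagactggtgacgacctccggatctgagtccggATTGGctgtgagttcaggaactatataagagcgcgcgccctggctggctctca
They lie at chr17:34000348-34000477 on the minus strand, chr17:35379437-35379576 on the plus strand and chr2:122147577-122147686 on the plus strand. The 250 bases before B2m held a Y box and neither the ISRE nor the NF-kB letters. The same was true of H2-T22, Tap1 and Tapbp. Only these exact letters were searched, so an element with other letters would be missed.

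Class I loading genes differed little between groups. Their 7 log2 fold changes lay between -0.28 (Tap2) and 0.14 (Pdia3), with a median of -0.01. Tap1, the first subunit of the peptide transporter (chr17:34187553-34197225), was at 377, 439.6, 438 and 450.3 CPM in the photoconverted and 294, 588, 409.6 and 429.7 CPM in the control tumors. Tap2, its partner, was at 139, 194, 160.2 and 221 against 118, 361, 172 and 217 CPM. Tapbp, which encodes tapasin, was at 586, 785, 676 and 933 against 457, 1333, 698 and 911 CPM. The transporter and tapasin thus shared the order of the heavy chains, with control tumor 2 at the top and control tumor 1 at the bottom.

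The chaperones were steadier. Calr, which encodes calreticulin, was at 724, 659, 637 and 669.6 CPM in the photoconverted and 764, 701, 678 and 708 CPM in the control tumors. It had the narrowest range of the 41 members, 1.20-fold, and was lower in the photoconverted tumor of all 4 pairs, as was H2-DMb1, which held for 7.19% of all genes. The log2 fold change of Calr was -0.08 ± 0.11, and the exact permutation p for n = 4 against 4 was 0.200. Canx, Pdia3 and Erap1, the aminopeptidase that trims peptides, were at 735 to 1103, 353 to 505 and 95.5 to 141 CPM over the 8 tumors, with log2 fold changes of 0.02 ± 0.16, 0.14 ± 0.13 and 0.05 ± 0.15. Summed over the 7 loading genes, levels were 3607 ± 188 CPM in the photoconverted and 3731 ± 348 CPM in the control tumors.

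The classical class II genes and Cd74 spread widely within both groups. H2-Ab1, the beta chain of I-A (chr17:34257689-34269419), was at 113, 126, 194 and 54.9 CPM in the photoconverted and 143, 204, 177 and 33.9 CPM in the control tumors. H2-Aa, its alpha chain (chr17:34282744-34287823), was at 129, 131, 211 and 44.0 against 161, 119.8, 197 and 25.9 CPM. Cd74, the invariant chain, was at 307, 359, 529 and 176 against 354, 494, 436 and 109 CPM. In all 3 genes tumor 4 was the lowest of its group and control tumor 4 the lowest of all. The log2 fold changes were -0.19 ± 0.52, 0.03 ± 0.59 and -0.02 ± 0.45, with adjusted p-values of 0.999 in edgeR. With the replicate number as a block they were -0.06 ± 0.21, 0.16 ± 0.16 and 0.07 ± 0.18. The edgeR adjusted p-values with the block were 0.956, 0.894 and 0.943. H2-Eb1, the beta chain of I-E, was at 48.9 to 155 CPM in the photoconverted and 28.7 to 148 CPM in the control tumors. The alpha chain pseudogene H2-Ea-ps had 0 counts in all 8 tumors.

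The genes of the peptide exchange machinery were lower in level. H2-DMb1 was at 21.1 to 41.8 CPM in the photoconverted and 22.5 to 49.4 CPM in the control tumors, and H2-DMa at 15.9 to 24.1 and 15.3 to 37.4 CPM. H2-DMb2 was at 7.36, 7.23, 9.26 and 4.10 against 11.4, 6.53, 15.6 and 4.88 CPM. It had the lowest log2 fold change of all 41 members, -0.47 ± 0.38 (edgeR, unadjusted p = 0.248), with control tumors 1 and 3 above every photoconverted tumor. H2-Oa and H2-Ob, which form H2-O, an inhibitor of H2-DM found mainly in B cells, were at 2.03 to 4.05 and 0.305 to 1.17 CPM. H2-Eb2, the member with the fewest counts, never exceeded 0.971 CPM and was not tested with all 8 tumors. The B cell markers Cd79a, Cd79b and Pax5 were low as well, each at 0.851 to 3.43 CPM. Summed over the 10 class II genes, levels were 702, 789, 1167 and 368 CPM in the photoconverted and 858, 1029, 1051 and 244 CPM in the control tumors, with means of 757 ± 328 and 796 ± 378 CPM. Per kilobase of exon H2-Aa stood at 113, H2-Ab1 at 108 and Cd74 at 244 CPM, all below H2-K1 at 1189.9 CPM.

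The X box letters stood before 4 members, H2-Eb1, H2-Eb2, H2-DMb1 and H2-Oa, against 0.816% of all promoters, and each of these 4 also held a Y box, a pair found in 0.292%. All 4 are class II genes. The X and Y boxes are the elements on which the factors that recruit Ciita assemble. The 110 bases before H2-Eb1 (chr17:34305757-34305866, plus strand) and H2-Aa (chr17:34287824-34287933, minus strand) are shown, with X box and Y box in capitals. They are class II stretches with and without the X box letters. Whether these letters bear on the levels in the tumors was not tested.
H2-Eb1: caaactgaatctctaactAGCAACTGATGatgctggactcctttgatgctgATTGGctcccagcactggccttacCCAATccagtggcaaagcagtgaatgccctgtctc
H2-Aa: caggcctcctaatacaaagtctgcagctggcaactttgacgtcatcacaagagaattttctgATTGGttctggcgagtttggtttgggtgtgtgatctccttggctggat
In the stretch before H2-Aa only the Y box letters matched. Only the exact letters were searched, so the lack of a match does not show that H2-Aa lacks an X box.

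Nlrc5, the class I transactivator, was at 179, 170.3, 242 and 145 CPM in the photoconverted and 140.0, 189, 151 and 132 CPM in the control tumors. Photoconverted tumor 3 was the highest of the 8 and control tumor 4 the lowest. The log2 fold change was 0.27 ± 0.18 (edgeR, unadjusted p = 0.170, adjusted p = 0.999), and in the 5 tumors below an Rn45s share of 10% it was 0.44 ± 0.16 with an adjusted p of 0.426. Over the fits that left out 1 tumor each, the log2 fold change of Nlrc5 was lowest without photoconverted tumor 3, at 0.11, and highest without control tumor 2, at 0.38. Ciita, the class II transactivator, was at 10.1, 11.9, 15.8 and 5.19 against 16.1, 15.9, 17.9 and 3.30 CPM. Control tumors 1 to 3 lay above every photoconverted tumor, with photoconverted tumor 3 just below them, whereas control tumor 4 lay below all. Its log2 fold change was -0.30 ± 0.49 (edgeR, adjusted p = 0.999). Cd1d1, which presents lipids to NKT cells, was at 4.17 to 7.46 CPM in the 8 tumors, with a log2 fold change of 0.04 ± 0.21.

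The relation of regulators to their targets was examined over the 8 tumors on the log2 CPM scale, in 6 pairs of genes with exact permutation tests and Benjamini-Hochberg adjustment over the 6. Ciita and H2-Ab1 correlated with a Pearson r of 0.98 (exact permutation p = 0.00055, adjusted p = 0.0033) and a Spearman rho of 0.81 (p = 0.0218, adjusted p = 0.131). Photoconverted tumor 4 and control tumor 4, the tumors farthest from the median of Ciita, lay apart from the other 6, and without them r was 0.83 (exact p = 0.0389). Ciita and Cd74 correlated with an r of 0.97 (exact p = 0.0012, adjusted p = 0.0036) and a rho of 0.71 (p = 0.0576, adjusted p = 0.166), and without the same tumors r was 0.72 (exact p = 0.133). These exact p-values without the 2 tumors are unadjusted, and after adjustment over the 6 pairs neither was under 0.05. Both relations thus rested in part on the pair of tumors with the lowest class II levels. The 3 tumors with a high Rn45s share and the other 5 were too few for a value within each.

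Leukocyte RNA was low in the same pair of tumors. Ptprc was at 122, 115, 153 and 71.0 CPM in the photoconverted and 152, 91.0, 152 and 50.5 CPM in the control tumors. Ptprc and H2-Ab1 correlated with an r of 0.85 (exact p = 0.012, adjusted p = 0.0241) and a rho of 0.62 (p = 0.115, adjusted p = 0.172), but without photoconverted tumor 4 and control tumor 4 r was -0.02, so that the relation rested on those tumors. Relative to Ptprc, the log2 ratio of H2-Ab1 was -0.10, 0.13, 0.34 and -0.37 in photoconverted and -0.08, 1.17, 0.22 and -0.58 in control tumors. Control tumor 2 had by far the most H2-Ab1 per Ptprc. Relative to the macrophage marker Csf1r it did not stand out. That log2 ratio was 0.60 in control tumor 2, 0.58 in control tumor 3 and 0.46 in photoconverted tumor 2. Laptm5, a further leukocyte marker, was highest among the control tumors in control tumor 2, at 151 CPM. The mean log2 ratio of H2-Ab1 to Ptprc differed between groups by -0.18 (exact permutation p = 0.714 for 4 against 4 tumors), and by 0.15 without control tumor 2.

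For class I, Nlrc5 was set against 2 genes, H2-K1 and Tap1. Nlrc5 correlated with H2-K1 with an r of 0.21 and a rho of 0.095 (exact p = 0.610 and 0.840) and with Tap1 with an r of 0.38 and a rho of 0.36 (exact p = 0.340 and 0.389). Neither of these class I relations had an adjusted p under 0.05, and without the 2 tumors farthest from the median of Nlrc5 their r was 0.58 and 0.64 (exact p = 0.244 and 0.174). Whether these relations differed from those of Ciita was not tested.

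**Figure D3:**
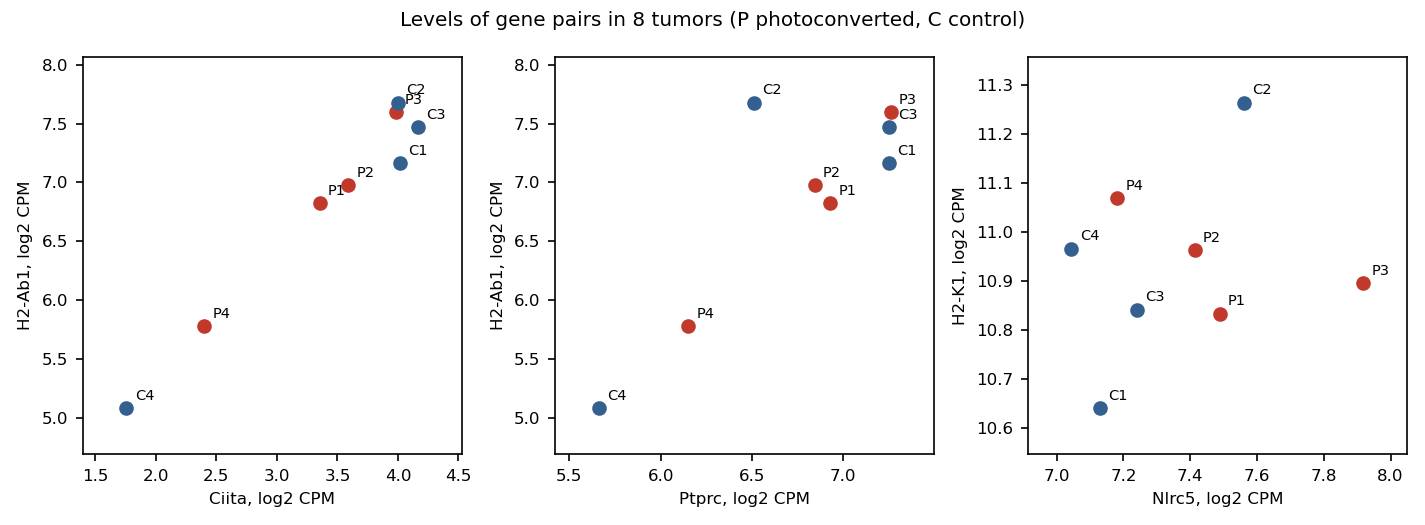
Log2 CPM of H2-Ab1 against Ciita (left) and against Ptprc (middle), and of H2-K1 against Nlrc5 (right), with 1 point per tumor (P photoconverted, red; C control, blue; log2 scale on all axes). P4 and C4 lie apart at the lower left of the first and second panels, and C2 lies above the other tumors of like Ptprc.

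When tumors were ordered by their Rn45s share, B2m and its heavy chains lay on opposite sides. The split at a share of 10% was chosen with these values known. Of the 41 tested members 14 were higher in all 3 tumors above it than in the other 5, against 23.4% of all genes, 5 were lower in all 3, against 21.0%, and 22 overlapped. The share of members apart in either direction, 46.3%, was near that of all genes, 44.4%. The 14, which include the repeated symbols, were H2-K1, H2-D1, H2-L, H2-Q1, H2-Q6, H2-Q7, H2-Q8, H2-Q9, H2-T9, H2-T10, H2-T22, Tap2, Tapbp and H2-Ke6. The 5 were B2m, H2-Aa, H2-DMb2, H2-T3 and Erap1.

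On the log2 CPM scale the mean of the 3 tumors minus that of the other 5 was 0.27 for H2-K1, 0.43 for H2-D1, 0.77 for H2-Q7, 0.74 for Tap2 and 0.73 for Tapbp, and -1.61 for B2m. The log2 ratio of B2m to H2-K1 was -0.49, -1.46, -0.49 and -2.37 in photoconverted and -0.31, -3.12, -0.80 and -2.26 in control tumors. It was lowest in control tumor 2, which had the highest Rn45s share, and highest in control tumor 1, which had the lowest. B2m has 860 bases of exon, and over the 993 tested genes shorter than 1000 bases the median of the same difference was 0.07, with quartiles of -0.48 and 0.48. All 10 class II genes had a difference below 0, with a median of -0.88 over the 9 tested, where the median over all genes tested was -0.03. It was -1.66 for H2-Aa and -0.93 for H2-DMb2, which were lower in all 3 tumors, and -0.0062 for H2-DMa. The levels of H2-Ab1, H2-Eb1, Cd74 and Ciita overlapped between the sets and were lowest in photoconverted tumor 4 and control tumor 4 and above their means in control tumor 2. The part of transcript length, RNA quality or library preparation in these differences was not tested.

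**Figure D4:**
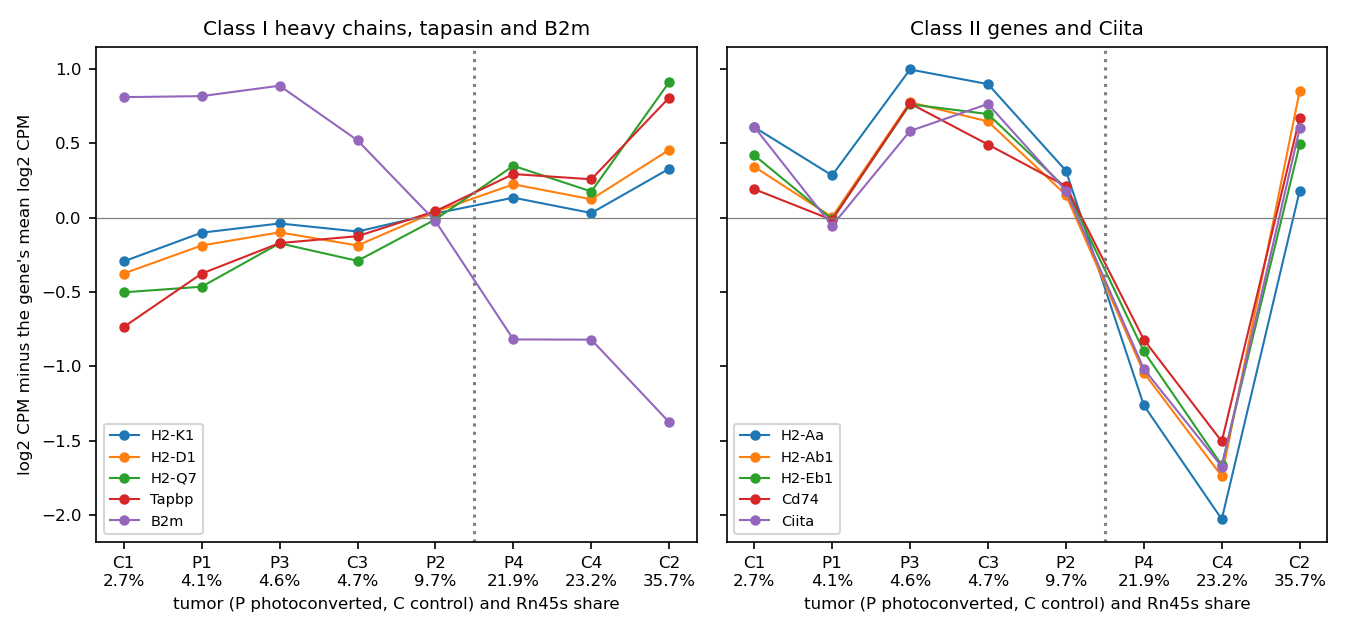
Log2 CPM of each gene minus its mean over the 8 tumors (y axis, log2 scale), with tumors ordered from left to right by their Rn45s share (x axis, percent of counts; P photoconverted, C control); the lines only join the points of a gene and the dotted line marks the share of 10%. B2m is lowest, and H2-D1, H2-Q7 and Tapbp highest, in the 3 tumors to the right of the dotted line (left panel), whereas class II genes and Ciita are low in P4 and C4 and above their means in C2 (right panel).

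Other genes of the pathway, in lists chosen with earlier results of these data known, did not pass the threshold either: 0 genes of the 6 context lists had an adjusted p under 0.05 in edgeR with or without the replicate block, and 0 had an unadjusted p under 0.05 without it, against 2.23% of all genes. With the block 3 had an unadjusted p under 0.05, all higher after photoconversion, against 4.38% of all genes higher. They were Ifng, Jak2, the kinase of its receptor, and Klrc1, with edgeR adjusted p of 0.611, 0.770 and 0.821. The immunoproteasome, which cuts peptides for class I, had 0 of its 5 genes at that unadjusted level and a median log2 fold change of -0.04. The other genes that handle class I peptides had 0 of 8 with a median of -0.0056, and the cathepsins and related genes that process class II had 0 of 7 with a median of 0.03. The factors that bind the X and Y boxes had 0 of 7 with a median of 0.02. Of the interferon gamma signal to MHC, 0 of 10 genes had an unadjusted p under 0.05 without the block and 2, Ifng and Jak2, with it. Without the block 8 of 10 log2 fold changes lay above 0 with a median of 0.16, against 46.8% of all genes above 0. Ifng, the cytokine itself, was at 2.28, 0.979, 2.92 and 0.410 CPM in the photoconverted and 1.26, 0.535, 0.960 and 0.183 CPM in the control tumors. It was higher in the photoconverted tumor of each same-numbered pair, which held for 7.2% of all genes, while the groups overlapped. In pair 4 its levels, 0.410 and 0.183 CPM, rested on few reads. The log2 fold change of Ifng was 1.10 ± 0.64 (edgeR, unadjusted p = 0.120, adjusted p = 0.999), and with the replicate block it was 1.14 ± 0.31 (adjusted p = 0.611). The co-receptors and inhibitory class I receptors of T, NK and myeloid cells had 0 of 9 at an unadjusted p under 0.05 without the block, with a median of -0.03.

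Markers of the cells that carry these molecules overlapped between groups. Summed macrophage markers (7 genes) were at 493 to 1106 CPM in the photoconverted and 384 to 955 CPM in the control tumors, summed dendritic cell markers (8 genes) at 37.5 to 59.8 and 29.7 to 62.7 CPM, and summed T cell markers (4 genes) at 10.7 to 19.9 and 6.41 to 19.7 CPM. Photoconverted tumor 4 and control tumor 4 were the lowest of their groups in all 3 sums, as they were in class II genes. Skeletal muscle markers summed to 121 to 1031 CPM in the photoconverted and 123 to 318 CPM in the control tumors. Their 5 genes had a median log2 fold change of 1.14, and 1 of them, Tnnt3, had an unadjusted p under 0.05, against 1.65% of all genes higher. With the replicate block 4 of the 5, Tnnt3, Acta1, Ckm and Myh4, were higher at that level, with unadjusted p of 0.0035 to 0.0416 in edgeR and none under an adjusted 0.05, against 4.38% of all genes higher. Skin markers were at 1.85 to 21.2 and 2.44 to 4.23 CPM, and 1 of 3 tested, Krt14, had an unadjusted p under 0.05 with and without the block. Of the 7 dendritic cell markers tested, 1, Cd209a, was higher at that level with the block, against 4.38% of all genes, and 0 without it. Its log2 fold change with the block was 1.42. Over the 7, 2 log2 fold changes lay above 0 without the block, with a median of -0.24. With the block their median was -0.09. Of the 3 B cell markers tested, Cd79b was lower at that level with the block, against 1.63% of all genes. The highest muscle sum was in photoconverted tumor 3, the photoconverted tumor with the most H2-Ab1 and Nlrc5. The part of muscle and skin RNA in the MHC values was not tested.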

How the data were processed

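Libraries were made with a kit that the labels give as SMARTER stranded total RNA and the methods of the study as TruSeq stranded total RNA. The authors deposited raw counts of reads per gene symbol for each tumor, and a further table with normalized signal values, equal to these counts divided by 1 size factor per tumor. The submitters' processing notes name CASAVA, FastQC, Trim Galore, HISAT2, featureCounts, DESeq2 and the build mm10, and the annotation and strand setting of the counting are not given in the sources used here. Photoconverted and control tumors were taken from the sample labels.

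Counts were tested with edgeR 4.0.16 in R 4.3.3 (TMM, filterByExpr by group, glmQLFit and glmQLFTest, two-sided, Benjamini-Hochberg adjustment over all 14468 genes tested, threshold 0.05). Log2 CPM had a prior count of 2. Exact permutation tests ran over the 70 arrangements of 4 against 4 tumors and over all pairings for correlations (scipy 1.17.1). Positions and exon lengths came from GENCODE M21 basic (GRCm38, the assembly of mm10) and were found for 39 of 43 members. Promoters came from RefSeq (GRCm38.p6). Alternatives were DESeq2 1.42.0, limma 3.58.1 on log2 of the deposited normalized signal values plus 1, other scaling, filtering and dispersion, the replicate number as a block, leaving out each tumor, and leaving out, fitting or splitting by Rn45s.

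Both groups carry numbers 1 to 4 in the labels. Deviations from the group means correlated across genes between same-numbered tumors with r of 0.60, 0.11, 0.41 and 0.62 for numbers 1 to 4, all over 0.1, and on that criterion the numbers were taken to pair the tumors. Some differently numbered tumors correlated more highly than the pair numbered 2, with r of 0.48 for photoconverted tumor 3 with control tumor 1, 0.46 for photoconverted tumor 1 with control tumor 3 and 0.35 for photoconverted tumor 4 with control tumor 2, and the labels do not say that the numbers mark pairs. The main fit and the permutation tests between groups did not use the pairs. The fit with the replicate block is given beside a result where it bears on a call, and for H2-Ab1, H2-Aa and Cd74, whose standard errors it narrowed.

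Members and lists were chosen with earlier results of these data known. Genes were named as the main class I, loading, class II and transactivator genes, the 5 tested members with the smallest edgeR p, those of lowest and highest total count, and, per list, at most 3 genes of smallest p. H2-Bl, H2-Q2, H2-L, H2-Q8, H2-Q9, H2-T9, H2-K2, H2-Ke6, H2-M2, H2-Ea-ps, Csf1r, C1qb, Cd68 and Adgre1 were named after their values were seen. So were H2-Q10, Ckm and Myh4, as members of a count. Of the 6 correlations computed, 1 is not reported here. Intervals from counts alone are not given, and depth limits genes of few counts such as H2-Eb2 and H2-Bl.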

Additional observations from a re-analysis of the deposited data

Results flagged for a closer look

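Samples far from the others of their group were sought in 96 groups of 4 values, of which chance would mark about 4.8 (1 in 20), and 2 were marked. Among control tumors, Ciita was at 3.30 CPM in control tumor 4, where the nearest of the other 3 was at 15.9 CPM. Among photoconverted tumors, Tap1 was at 377 CPM in photoconverted tumor 1, where the nearest of the other 3 was at 438 CPM.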

How the results depend on the processing

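Among all genes, edgeR called 0 at an adjusted p under 0.05, DESeq2 called 24, edgeR in the 5 tumors below an Rn45s share of 10% called 42, and leaving out each tumor in turn gave 0 to 11, with 11 without photoconverted tumor 4. The members called stayed at 0 in all settings but that of the 5 tumors, which called 1 (H2-Bl, which passed the filter there only through the control tumors). The fit with the replicate block changed no call. The signs of small log2 fold changes did depend on the setting, with no call lost or gained by it, and the cause was not tested. In the 5 tumors they turned to 0.15 for H2-K1, 0.20 for H2-D1, -0.058 for B2m, 0.21 for H2-Q4, 0.30 for H2-Q6, 0.19 for H2-Q7, 0.22 for H2-T22, 0.15 for H2-Q1, 0.25 for Tap1, 0.18 for Tap2, 0.24 for Tapbp, -0.10 for Canx, -0.10 for Erap1, -0.19 for H2-Aa, 0.012 for H2-DMa, 0.011 for Cd74 and -0.071 for Cd1d1. With the log2 Rn45s share as a covariate they turned to 0.053 for H2-K1, 0.054 for H2-D1, 0.050 for H2-Q4, 0.052 for H2-Q6, 0.029 for H2-T22, 0.078 for Tap1 and -0.14 for H2-Aa. With the replicate block they turned to 0.012 for H2-K1 and H2-Eb1, 0.026 for Tap1 and 0.071 for Cd74, with limma to 0.014 for H2-K1, 0.028 for Tap1 and H2-Eb1, 0.067 for H2-Ob and 0.075 for Cd74, and without a filter to 0.0025 for H2-K1.

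Leaving out each tumor in turn gave log2 fold changes of -0.092 to 0.12 for H2-K1, -0.15 to 0.13 for H2-D1, -0.22 to 0.19 for H2-Q4, -0.31 to 0.20 for H2-Q6, -0.40 to 0.13 for H2-Q7, -0.045 to 0.23 for H2-T10, -0.21 to 0.10 for H2-T22, -0.27 to 0.12 for H2-T23, -0.20 to 0.10 for H2-T24, -0.27 to 0.042 for H2-M3, -0.16 to 0.17 for Tap1, -0.48 to 0.077 for Tap2, -0.40 to 0.11 for Tapbp, -0.087 to 0.094 for Canx, -0.040 to 0.15 for Erap1, -0.31 to 0.33 for H2-Aa, -0.52 to 0.044 for H2-Ab1, -0.41 to 0.12 for H2-Eb1, -0.40 to 0.054 for H2-DMa, -0.34 to 0.0067 for H2-DMb1, -0.36 to 0.21 for H2-Ob, -0.32 to 0.19 for Cd74, -0.066 to 0.22 for Cd1d1, -0.18 to 1.00 for H2-T3, 0.043 to 0.70 for B2m, 0.11 to 0.38 for Nlrc5 and -0.63 to -0.084 for Ciita. For most class I and loading genes the highest value was that without control tumor 2. The difference in the log2 ratio of H2-Ab1 to Ptprc ranged from -0.43 to 0.15. Without the 2 tumors farthest on Ciita or Ptprc, Pearson r was 0.83 for Ciita with H2-Ab1, 0.72 for Ciita with Cd74 and -0.023 for Ptprc with H2-Ab1. The ratios of class sums moved by less than the combined relative SD of both groups in every alternative setting. These were DESeq2 size factors, without Rn45s, the 5 tumors and without each tumor in turn. That spread is wide, so a ratio could change direction within it. Control tumors 1 to 4 had class Ib sums of 2896, 6019, 3353 and 4424 CPM. Without control tumor 2 the photoconverted mean of the class Ib sums, 3909 CPM, was the higher. With 4 tumors a group and library totals down to 12576615 counts, depth limits H2-Eb2 and H2-Bl most.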

Other observations

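Among the receptors that read these molecules, Klrc1, which encodes the Nkg2a chain that binds Qa-1, was at 9.96, 5.31, 8.55 and 2.53 CPM in the photoconverted and 5.40, 2.78, 9.95 and 1.28 CPM in the control tumors (log2 fold change 0.42 ± 0.59, edgeR adjusted p = 0.999). Pirb, an inhibitory receptor for class I on myeloid cells, was at 92.3, 74.9, 136 and 45.4 against 128, 48.6, 85.7 and 37.5 CPM, and Cd4, the co-receptor for class II, at 3.43, 2.72, 4.65 and 2.60 against 5.03, 4.17, 4.76 and 1.83 CPM. In all 3 genes tumor 4 was the lowest of its group, and control tumor 4 the lowest of the 8, as for H2-Ab1.

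Psmb10, an immunoproteasome subunit, was at 238, 285, 259.8 and 372 CPM in the photoconverted and 188, 495, 255 and 367 CPM in the control tumors, with control tumor 2 highest and control tumor 1 lowest as for Tapbp and H2-Q7. Psmb8 had the same extremes within a narrower range, at 185 to 272 CPM. Ifi30, the thiol reductase of class II processing, was at 144, 142, 148 and 137 against 159, 148, 173 and 154 CPM, with a log2 fold change of -0.15 ± 0.10 (edgeR, unadjusted p = 0.165, adjusted p = 0.999).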
